A study of Mus musculus with 20 samples.

Results

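Carboxylesterases are described here through 10 genes of the mouse Ces family, Ces1c, Ces1d, Ces1e, Ces1f, Ces1g, Ces2a, Ces2c, Ces2e, Ces3a and Ces3b, chosen by symbol as the rows of a gene expression table of mouse liver that holds 38924 genes. All 10 were measured in each of 20 livers, with 136 to 46527 fragments per gene and library, and all passed the filter on low values that 14524 genes passed. The livers came from male mice of 4 groups of 5. Control diet WT (NDWT) and CDAHFD WT (HFWT) mice were C57BL/6J, and control diet TSP-1 null (NDKO) and CDAHFD TSP-1 null (HFKO) mice, called null mice below, were labelled as TSP-1 knockouts on that background, a germline deletion in Thbs1, the gene of thrombospondin-1. CDAHFD is a high fat diet with defined amino acids, limited methionine and no choline that is used as a model of non-alcoholic steatohepatitis (NASH). Mice were bought at 5 weeks of age, acclimated for 1 week and fed either diet for 12 weeks, and all groups share sex, supplier and time on diet. Each library is labelled as 1 mouse. Each value below is FPKM, fragments scaled by the length of the gene and by the fragments assigned to genes in the library, so that levels can be compared between genes.

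Carboxylesterases are serine hydrolases of the endoplasmic reticulum of hepatocytes, where most are held by a retention signal at the end of the protein. They split ester bonds in drugs, prodrugs and pesticides, and several also act on triacylglycerol, diacylglycerol and cholesteryl ester. In hepatocytes, triacylglycerol that is released from droplets in this way can be built into very low density lipoprotein (VLDL) or oxidised. Rodents carry many more Ces1, Ces2 and Ces3 genes than humans, in which CES1 is the main liver enzyme.

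Of the whole table, 3 facts bear on these genes. First, Thbs1 did not follow the genotype labels. Its FPKM was 0.17, 0.326, 0.268, 0.058 and 0.165 in NDWT livers and 1, 1.5, 0.986, 1.9 and 1.13 in NDKO livers, higher in every NDKO liver. On CDAHFD it was 5.77, 6.1, 3.46, 3.91 and 3.86 in HFWT livers and 3.3, 3.32, 3.05, 3.14 and 4.4 in HFKO livers, with overlap. Which exons the knockout allele lacks is not given in the sources used here, and FPKM per gene does not show where in a gene the fragments lie. The groups are therefore named as the libraries are labelled. Second, the diet moved the table as a whole. The median log2 fold change (log2FC) of the 14524 genes was 0.53 with CDAHFD in WT and 0.50 in null mice, against −0.07 and −0.10 for genotype on control diet and CDAHFD. Last, markers of other cell types moved with the diet. The summed FPKM of 11 stellate cell and myofibroblast markers ranged from 53.0 to 73.1 in the 10 control diet livers and from 302 to 578 in the 10 CDAHFD livers, that of 10 macrophage markers from 228 to 383 and from 870 to 1907, and that of 7 cholangiocyte markers from 18.3 to 24.4 and from 192 to 500.4. The sum of 15 hepatocyte markers ranged from 47946 to 57016 in NDWT and 56811 to 65539 in NDKO, against 38627 to 54917 in HFWT and 50121 to 62421 in HFKO. In whole liver, fewer hepatocytes and less RNA of a gene per hepatocyte cannot be told apart, and the part of either in the results below was not tested. The other marker lists are given in the closing section.

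The 10 genes lie in 2 clusters on chromosome 8 (GRCm38). The Ces1 cluster runs from 93020214 to 93535707 and holds 9 genes on the minus strand, 5 of them described here. Ces1c (ENSMUSG00000057400.6, 93099015 to 93131283) encodes an esterase that is secreted into mouse plasma. Ces1d (93166068 to 93197838) encodes the triacylglycerol hydrolase of the hepatocyte endoplasmic reticulum, which feeds VLDL. Ces1e (93201218 to 93229619) encodes egasyn, which holds beta-glucuronidase in the endoplasmic reticulum. Ces1f (93256236 to 93279747) encodes a relative of Ces1d that also acts on lipid, and Ces1g (93302369 to 93337308) encodes an enzyme linked to hepatic lipid export and insulin sensitivity. The Ces2-Ces3 cluster runs from 104734003 to 105150109 and holds 11 genes on the plus strand. Ces2a (104734003 to 104741634), Ces2c (104847068 to 104854483) and Ces2e (104926260 to 104934672) encode members of the group related to human CES2, the main carboxylesterase of the intestine. Ces3a (105048599 to 105058414) and Ces3b (105083753 to 105093929) are neighbours that encode abundant liver esterases. Gene lengths in the table, on which FPKM rests, ran from 1.97 kb for Ces2c to 3.29 kb for Ces1f.

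These genes are copies of each other, and fragments from stretches that 2 of them share cannot be assigned with certainty. Over the GENCODE M21 transcripts of the family, the share of a gene's stretches of 31 bases that also occur in another Ces gene was 46.3% for Ces2c, most of it with Ces2d-ps, a pseudogene. It was 34.9% for Ces3a and 35.7% for Ces3b, with each other, and 20.6% for Ces1c, mostly with Ces1b. The other 6 members shared 2.81% (Ces1f) to 8.09% (Ces1e). Ces2d-ps held at most 0.707 FPKM in any library, against 4.00 to 26.7 FPKM for Ces2c. The values of Ces2c, Ces3a, Ces3b and Ces1c are therefore less certain than those of the other members.

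Windows of 250 bases before the transcription start were matched by symbol for 7 of the 10 genes in RefSeq (GRCm38.p6), all but Ces1d, Ces1f and Ces3a. The windows below are shown because the genes behind them moved in different directions with diet, as described further on. The letters TTATGTAA, of the kind that C/EBP and PAR bZIP factors of the liver are known to bind, occurred on either strand in the windows of all 3 Ces1 members that had one, and in 0.819% of 32851 windows of the same length over all genes. They are in capitals, 94, 81 and 232 bases before the RefSeq start of Ces1c, Ces1e and Ces1g. For Ces1g that start lies 99 bases inside the gene as placed above, so part of its window lies within the gene. The 3 windows lie on the minus strand at chr8:93131284-93131533, chr8:93229620-93229869 and chr8:93337210-93337459. Of the Ces1 genes outside the set that had a window, Ces1a held these letters and Ces1h did not. The Ces1b window ends in TTATGTA, so whether the full letters occur there cannot be seen from the window.
Ces1c: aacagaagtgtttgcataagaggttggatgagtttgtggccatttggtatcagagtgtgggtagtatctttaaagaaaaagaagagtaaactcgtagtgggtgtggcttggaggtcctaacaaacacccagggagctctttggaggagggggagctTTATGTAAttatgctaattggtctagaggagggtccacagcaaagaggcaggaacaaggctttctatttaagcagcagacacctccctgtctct
Ces1e: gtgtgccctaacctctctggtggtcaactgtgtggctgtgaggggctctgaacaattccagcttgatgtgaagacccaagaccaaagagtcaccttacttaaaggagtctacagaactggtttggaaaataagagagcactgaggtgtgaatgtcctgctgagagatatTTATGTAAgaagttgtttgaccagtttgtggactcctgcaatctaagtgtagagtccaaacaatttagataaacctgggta
Ces1g: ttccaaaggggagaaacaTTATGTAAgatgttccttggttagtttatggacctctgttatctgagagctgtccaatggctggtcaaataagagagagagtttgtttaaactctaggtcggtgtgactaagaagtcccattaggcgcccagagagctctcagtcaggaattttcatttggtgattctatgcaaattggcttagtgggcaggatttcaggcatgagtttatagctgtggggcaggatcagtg
With FPKM as deposited, Ces1c did not pass with CDAHFD, Ces1e fell and Ces1g rose, which is the reason for showing these windows. With median of ratios scaling Ces1c had log2FC −0.56 in WT and −0.54 in null mice, short of the fold threshold. Ces1g was then not called in either genotype. With hepatocyte centring Ces1c had 0.50 in null mice. Whether the letters bear on the responses was not tested.

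The letters CAAAGT, the core of sites of the hepatocyte factor HNF4A, or ACTTTG on the other strand, occurred in 2 of the 7 windows, those of Ces2a and Ces2e, 70 and 80 bases before the start, and in 12.6% of all windows. They are in capitals below. The windows lie on the plus strand at chr8:104733753-104734002 and chr8:104926010-104926259, and that of their neighbour Ces2c, in which these letters do not occur, at chr8:104846818-104847067. Outside the set, the letters also occurred in the windows of Ces2f and Ces2g, and not in those of Ces2h and Ces4a.
Ces2a: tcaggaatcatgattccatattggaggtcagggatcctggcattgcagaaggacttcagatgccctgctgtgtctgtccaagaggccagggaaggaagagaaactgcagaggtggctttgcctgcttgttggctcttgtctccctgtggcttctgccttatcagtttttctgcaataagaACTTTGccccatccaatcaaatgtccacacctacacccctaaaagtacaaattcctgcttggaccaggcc
Ces2e: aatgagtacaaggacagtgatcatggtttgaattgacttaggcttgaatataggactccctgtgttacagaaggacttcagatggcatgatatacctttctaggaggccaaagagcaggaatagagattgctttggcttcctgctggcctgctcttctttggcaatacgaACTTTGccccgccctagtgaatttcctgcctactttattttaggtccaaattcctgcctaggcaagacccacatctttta
Ces2c: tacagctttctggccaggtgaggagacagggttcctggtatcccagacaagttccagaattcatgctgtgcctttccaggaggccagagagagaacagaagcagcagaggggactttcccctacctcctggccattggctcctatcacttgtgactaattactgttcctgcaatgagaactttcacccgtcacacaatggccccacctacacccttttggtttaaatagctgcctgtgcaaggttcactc
With CDAHFD, Ces2a fell in both genotypes, whereas Ces2c was called higher in both with FPKM as deposited. The call of Ces2e depended on the scaling, as given below with its values. Of the other motifs searched on either strand, CCAAT was in 5 of the 7 windows (33.8% of all windows), TATAAA in 2 (12.4%), AGGTCA in 1 (14.0%) and GTTAAT in 1 (6.43%). The motifs were chosen after the sequences and values had been seen, a match is not evidence of binding, and the windows of 250 bases say nothing of more distant elements.

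In control diet WT liver the members spanned a range from 1060 ± 120 FPKM for Ces3a (mean ± SD, n = 5) to 9.99 ± 4.89 FPKM for Ces2c. Ces3a ranked 62 among all genes of the table by group mean. Ces1c followed with 574 ± 68.1 FPKM, Ces1d with 256 ± 29.5, Ces3b with 163 ± 64.5 and Ces1f with 117 ± 7.55 FPKM. Ces1g, Ces1e, Ces2a and Ces2e lay close together, at 59.8 ± 9.20, 58.2 ± 4.75, 52.1 ± 8.78 and 46.7 ± 5.10 FPKM. In this order, ranges over the 5 mice did not overlap between Ces3a and Ces1c, Ces1c and Ces1d, Ces1f and Ces1g, or Ces2e and Ces2c, and overlapped for the other neighbours.

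In HFWT liver the order changed below the top 2 genes. Ces3a (829 ± 113 FPKM) and Ces1c (575 ± 68.9 FPKM) remained at the top, but Ces1g (119 ± 17.2 FPKM) followed, above Ces1d (72.3 ± 19.6 FPKM), without overlap in range. Ces1e (16.6 ± 4.07 FPKM) and Ces2a (16.6 ± 2.22 FPKM) were last. In HFKO liver, Ces3a (708 ± 120 FPKM) and Ces1c (667 ± 183 FPKM) overlapped in range, with Ces3a above Ces1c in 4 of 5 mice.

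The 10 genes together held 2398 ± 271 FPKM in NDWT and 2256 ± 172 in NDKO, against 1761 ± 109 in HFWT and 1691 ± 182 in HFKO. These were 0.546%, 0.509%, 0.392% and 0.379% of the fragments assigned to genes. Sums ranged from 2072 to 2779 FPKM in NDWT and from 2107 to 2451 in NDKO, all above the 1650 to 1924 in HFWT and 1419 to 1875 in HFKO. Ces1c and Ces3a made up 68.2% ± 1.65 of the sum in NDWT and 72.2% ± 1.87 in NDKO, but 79.7% ± 2.13 in HFWT and 81.2% ± 0.779 in HFKO. The share of Ces1d fell from 10.7% ± 0.854 in NDWT to 4.13% ± 1.18 in HFWT, while that of Ces1g went from 2.5% ± 0.252 to 6.79% ± 1.22. These sums and shares are descriptions without a test.

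**Figure D1:**
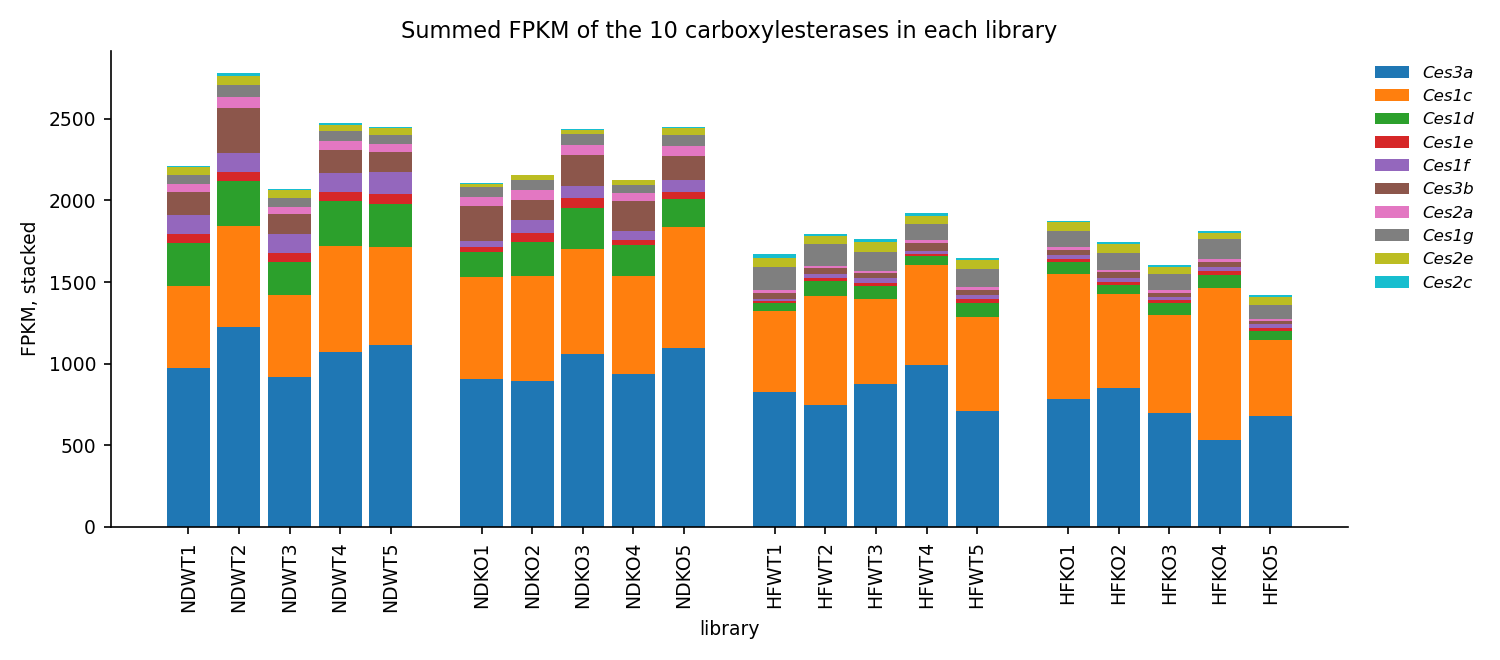
Summed FPKM of the 10 carboxylesterases in each of the 20 libraries (horizontal axis, library by group and replicate), with each gene as a coloured segment of a bar that starts at 0. The 10 control diet bars reach 2072 to 2779 FPKM and the 10 CDAHFD bars 1419 to 1924, and the upper segments other than Ces1g, Ces2e and Ces2c are thinner on CDAHFD.

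The first comparison asks how 12 weeks of CDAHFD changed these genes in WT liver. Of the 10 members, 7 passed the threshold of limma (Benjamini-Hochberg FDR under 0.05 over all genes tested and absolute log2FC above 0.58). In the same comparison 48.8% of all genes tested passed. 5 members were lower on CDAHFD, where 4.62% of all genes were, and 2 were higher, where 44.1% of all genes were. The median log2FC of the members was −1.0, against 0.53 for all genes. In null mice 8 of 10 members passed (45.9% of all genes), 5 lower (4.0% of all genes) and 3 higher (41.9%), with a median log2FC of −0.80 against 0.50. 7 of 10 passed in both genotypes (39.1% of all genes).

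The members that fell in both genotypes were Ces1d, Ces1e and Ces1f, which are adjacent in the Ces1 cluster, and Ces2a and Ces3b, the first and last of the members in the Ces2-Ces3 cluster. Ces1f fell most in WT. Its FPKM was 116, 111, 114, 116 and 131 in the 5 NDWT livers and 14.6, 27.6, 30.1, 17.5 and 29.7 in the 5 HFWT livers. The groups were far apart, and HFWT livers 1 and 4 were the lowest (log2FC −2.35, SE 0.19, FDR 1.60e-09). In null mice it was 41.3, 79.2, 75.7, 52.8 and 71.1 in NDKO and 23.0, 22.4, 20.1, 23.8 and 21.8 in HFKO. The HFKO livers lay close together and below every NDKO liver (log2FC −1.48, SE 0.19, FDR 9.16e-07).

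Ces1d, the triacylglycerol hydrolase, had 263, 275, 205, 276 and 261 FPKM in NDWT and 47.3, 92.6, 78.7, 56.4 and 86.5 FPKM in HFWT. It was 3.63-fold lower on CDAHFD in WT (log2FC −1.86, SE 0.17, FDR 1.19e-08). In NDKO it held 152, 207, 252, 190 and 169 FPKM, and in HFKO 74.5, 58.8, 76.7, 81.7 and 57.2 FPKM, a 2.77-fold fall (log2FC −1.47, SE 0.17, FDR 3.24e-07). No control diet liver overlapped a CDAHFD liver of its genotype. Ces1e, which encodes egasyn, followed the same course, from 51.4, 59.9, 56.5, 59.0 and 64.3 FPKM in NDWT to 10.9, 19.8, 18.4, 13.8 and 20.1 FPKM in HFWT. Its log2FC was −1.84 (SE 0.17, FDR 1.52e-08) in WT and −1.13 (SE 0.17, FDR 9.43e-06) in null mice, in which it went from 43.4 ± 11.4 to 19.3 ± 2.15 FPKM. HFWT livers 1 and 4 had the lowest Ces1d, Ces1e and Ces1f of their group alike.

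Ces1d and Ces1e kept close proportions to each other. Ces1d held 4.41 ± 0.583 times the level of Ces1e in NDWT and 4.58 ± 0.735 in NDKO, with 4.34 ± 0.212 for HFWT against 3.62 ± 0.558 in HFKO. By contrast, Ces1d against its neighbour Ces1c fell from 0.447 ± 0.0451 in NDWT to 0.125 ± 0.0294 in HFWT, and from 0.299 ± 0.0650 in NDKO to 0.108 ± 0.0171 in HFKO, without overlap in either genotype. A ratio within a library is not moved by a factor that is common to all genes of the library, as in median of ratios scaling or hepatocyte centring, but is moved by quantile normalization. The pairs were chosen after the values had been seen, and the ratios were not tested.

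In the Ces2-Ces3 cluster, Ces2a went from 50.05, 65.5, 41.5, 54.2 and 49.4 FPKM in NDWT to 19.8, 17.7, 14.0, 16.4 and 15.2 FPKM in HFWT. The spread within each group was small against the gap between them (log2FC −1.64, SE 0.13, FDR 2.08e-09). In null mice it went from 59.1 ± 5.51 to 15.5 ± 3.01 FPKM, a 3.84-fold fall (log2FC −1.94, SE 0.13, FDR 2.48e-10). Ces3b held 142, 278, 127, 142 and 127 FPKM in NDWT and 36.4, 31.2, 32.8, 50.1 and 28.7 FPKM in HFWT. NDWT liver 2 lay well above the rest of its group, and without it the log2FC was −1.93 in place of −2.14 (SE 0.20, FDR 1.70e-08). In NDKO Ces3b was 211, 127, 188, 182 and 151 FPKM and in HFKO 33.9, 33.3, 23.7, 29.4 and 22.6 FPKM, the largest fall of any member in either genotype (5.98-fold, log2FC −2.58, SE 0.20, FDR 1.60e-09).

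With FPKM as deposited, Ces1g and Ces2c were higher on CDAHFD in both genotypes. Ces1g went from 56.6, 75.5, 56.0, 59.5 and 51.6 FPKM in NDWT to 138, 133, 116, 95.5 and 111 FPKM in HFWT (log2FC 0.99, SE 0.12, FDR 5.35e-07). All HFWT livers lay above all NDWT livers. In null mice it went from 59.3 ± 7.46 to 102 ± 14.2 FPKM, again without overlap (log2FC 0.78, SE 0.12, FDR 1.11e-05). Ces2c, the least abundant member on control diet, was 10.4, 18.3, 6.53, 7.69 and 7.02 FPKM in NDWT and 26.7, 16.0, 17.7, 16.8 and 17.2 FPKM in HFWT. The groups overlapped through NDWT liver 2 (log2FC 1.00, SE 0.23, FDR 0.000717). In null mice Ces2c went from 4.89, 4.00, 4.80, 4.32 and 7.71 FPKM to 9.31, 13.4, 9.90, 11.6 and 11.2 FPKM, without overlap (log2FC 1.12, SE 0.23, FDR 0.000249).

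Ces2e passed the threshold in null mice, from 22.5, 31.1, 24.9, 29.0 and 40.4 FPKM in NDKO to 52.1, 53.0, 47.4, 37.3 and 49.8 FPKM in HFKO. The groups overlapped, since NDKO liver 5 stood above HFKO liver 4 (log2FC 0.71, SE 0.13, FDR 7.26e-05). In WT it was 46.7 ± 5.10 FPKM on control diet and 53.8 ± 5.15 FPKM on CDAHFD (log2FC 0.20, 95% interval −0.07 to 0.48, FDR 0.164). The difference between the genotypes in this response did not pass (interaction log2FC 0.51, SE 0.18, FDR 0.188). The call in null mice was lost with median of ratios scaling (log2FC 0.18) and quantile normalization (0.50), and with centring on hepatocyte markers Ces2e passed in both genotypes (0.62 in WT and 1.22 in null mice). In WT its sign changed with median of ratios scaling (−0.36), short of the fold threshold.

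The 2 most abundant members, Ces1c and Ces3a, were not called in either genotype with FPKM as deposited. Ces1c had 502, 619, 501, 646 and 603 FPKM in NDWT and 498, 668, 520, 612 and 579 FPKM in HFWT. Its log2FC was 0.00 in WT (95% interval −0.30 to 0.30, FDR 0.987) and −0.01 in null mice (95% interval −0.31 to 0.29, FDR 0.963), where it ranged from 463 to 932 FPKM in HFKO. In WT livers Ces3a went from 1060 ± 120 to 829 ± 113 FPKM (log2FC −0.36, SE 0.12, FDR 0.0109), and in null mice from 977 ± 92.2 to 708 ± 120 FPKM (log2FC −0.48, SE 0.12, FDR 0.00137). Both passed the FDR and missed the fold threshold. Against its neighbour Ces3b, Ces3a was 6.96 ± 1.59 times as abundant in NDWT and 23.5 ± 2.54 times in HFWT.

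**Figure D2:**
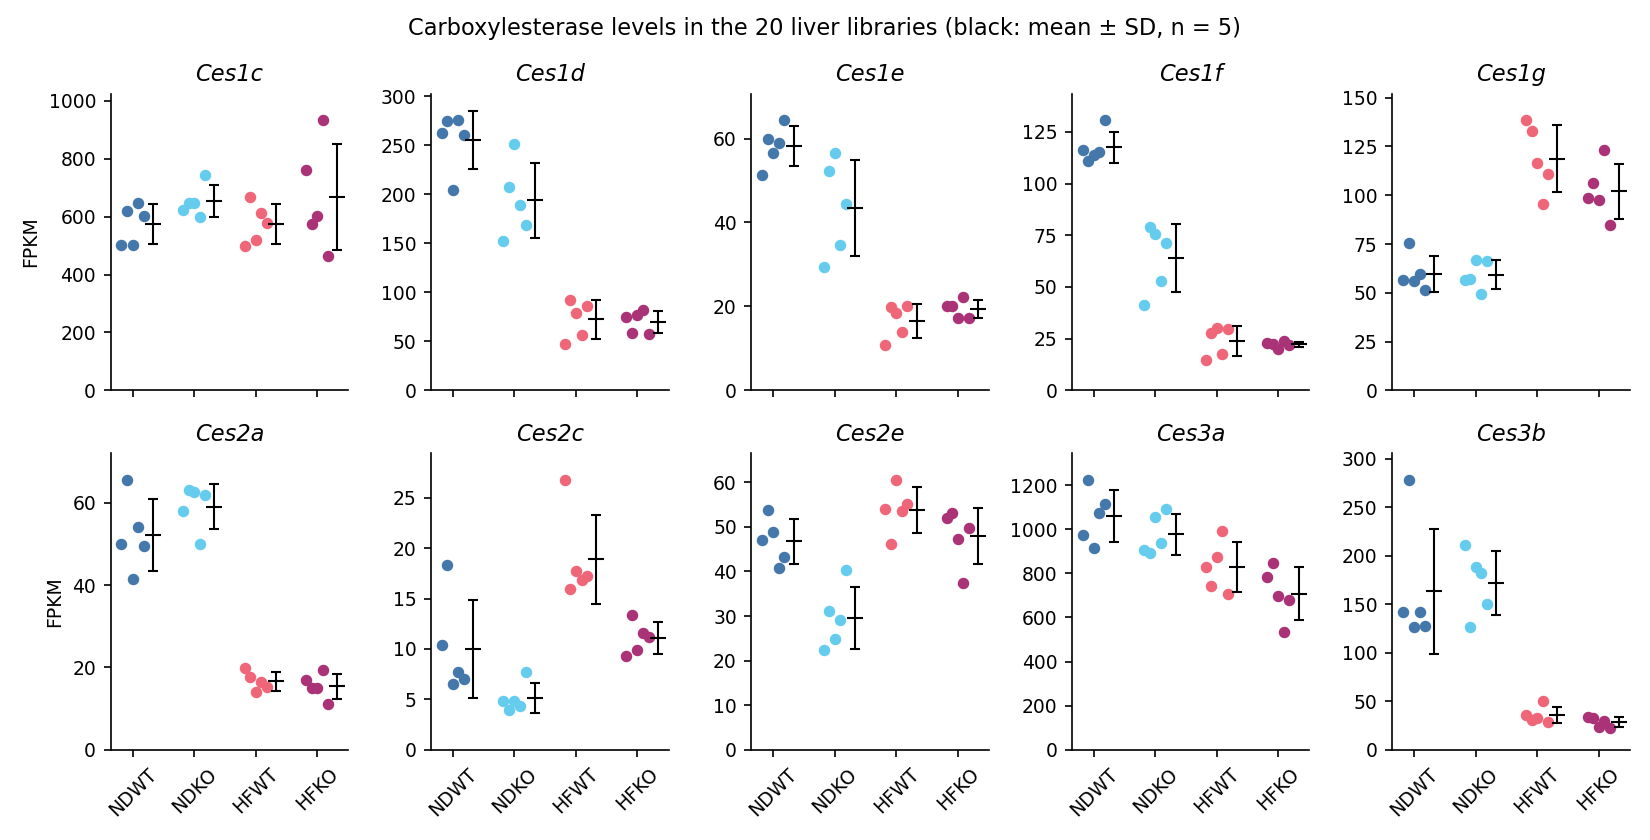
FPKM (vertical axis, from 0, with a scale of its own for each gene) of the 10 carboxylesterases in the 4 groups; each point is 1 liver, and the black bars are mean ± SD (n = 5). Ces1d, Ces1e, Ces1f, Ces2a and Ces3b sit lower in all CDAHFD livers than in any control diet liver of the same genotype, Ces1g sits higher, and Ces1c overlaps throughout.

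6 of 10 members did not overlap between NDWT and HFWT (56.2% of all genes tested), and 8 of 10 did not overlap between NDKO and HFKO (57.8%). In WT the members' share was thus near that of all genes. The WT and TSP-1 null diet comparisons share no libraries.

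**Figure D3:**
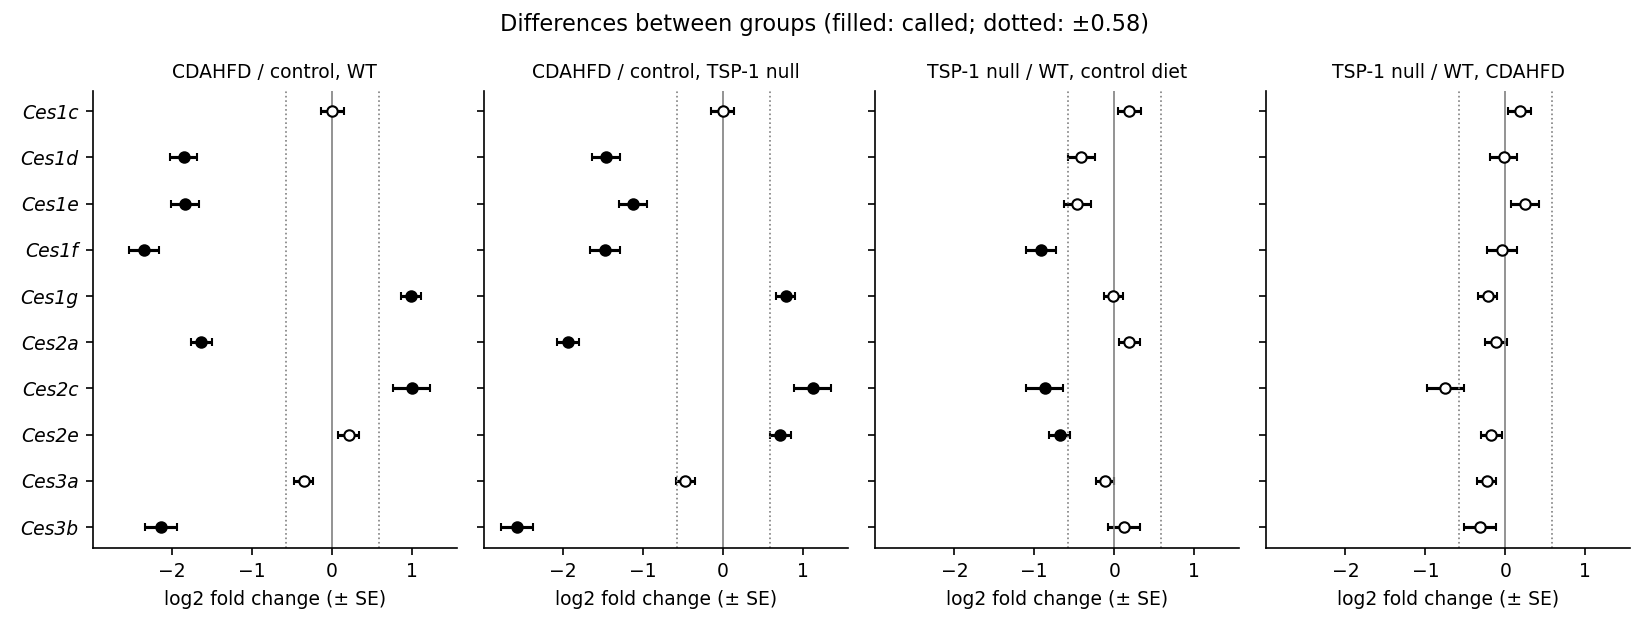
Log2 fold changes ± SE (horizontal axis) of the 10 carboxylesterases in 4 comparisons; filled points passed the FDR and the fold threshold, the latter drawn as dotted lines. In WT 5 filled points lie left of 0 and 2 right of it, in null mice 5 and 3, for genotype on control diet 3 and 0, and for genotype on CDAHFD no point is filled.

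Along the chromosome, with FPKM as deposited, the response changed sign between neighbours. In the Ces1 cluster, Ces1b rose (log2FC 1.64 in WT and 1.07 in null mice), Ces1c did not pass, Ces1d, Ces1e and Ces1f fell, and Ces1g rose. In the Ces2-Ces3 cluster, Ces2a fell, Ces2c rose, Ces2e passed in null mice and not in WT, and Ces2g rose (log2FC 1.15 and 1.17). Ces3a missed the fold threshold, and Ces3b and Ces4a fell. In null mice Ces2e was 0.71, but 0.18 and 0.50 without a call under median of ratios scaling and quantile normalization. In WT it was 0.20, but −0.36 without a call under median of ratios scaling and 0.62 with a call under hepatocyte centring.

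**Figure D4:**
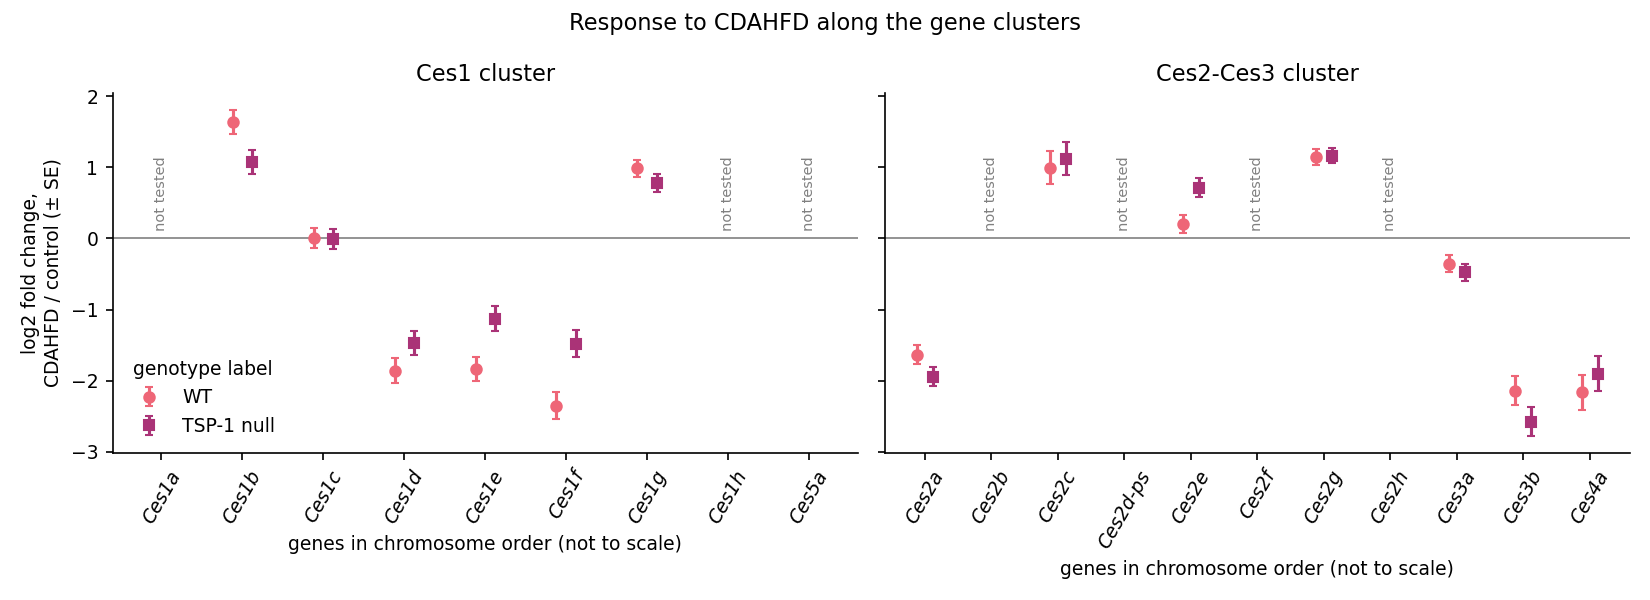
Log2 fold change ± SE of CDAHFD against control diet (vertical axis) for the carboxylesterase genes in their order along the chromosome (horizontal axis, not to scale) in WT (circles) and null mice (squares). Genes too low to test are marked, and a run of 3 genes that fell, Ces1d, Ces1e and Ces1f, lies between Ces1c near 0 and Ces1g near 1.

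How libraries are scaled decided part of these calls. FPKM divides by each library's own total. As deposited, 6412 genes were higher and 671 lower with CDAHFD in WT, and 6088 and 581 in null mice. The split was 3299 and 2242 in WT (3225 and 1981 in null mice) with median of ratios scaling, 2738 and 2359 (2690 and 1993) with quantile normalization, and 10382 and 286 (11031 and 244) when libraries were centred on 15 hepatocyte markers. The median log2FC of all genes in WT was then −0.01, −0.07 and 0.95. With median of ratios scaling, which sets the typical gene equal between libraries, Ces1d, Ces1e, Ces1f, Ces2a and Ces3b fell further in WT (log2FC −2.42, −2.40, −2.91, −2.20 and −2.70), and Ces3a also passed as lower (38.2% of all genes passed in WT and 35.8% in null mice; Ces3a −0.92 in WT, −1.01 in null mice). Ces1g and Ces2c were then 0.43 and 0.44 in WT and did not pass, so that 0 members were called higher in WT and 1 in null mice, Ces2c (0.59). Of all 14524 genes, 3299 were higher in WT and 3225 in null mice under this scaling. With quantile normalization 7 members passed in each genotype (35.1% and 32.2% of all genes). Centred on the hepatocyte markers, with 8 members past the threshold in each genotype (73.5% and 77.6%), the falls were smaller (−1.44, −1.42, −1.93, −1.22 and −1.72 in WT) and Ces1g and Ces2c higher (1.41 and 1.42). The 5 falls passed in both genotypes under every scaling tried, whereas the rise of Ces1g and Ces2c held with FPKM as deposited, quantile normalization and hepatocyte centring but not with median of ratios, except for Ces2c in null mice. Ces1c and Ces3a changed sign between scalings, as did Ces2e in WT (−0.36 with median of ratios, 0.62 with hepatocyte centring).

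**Figure D5:**
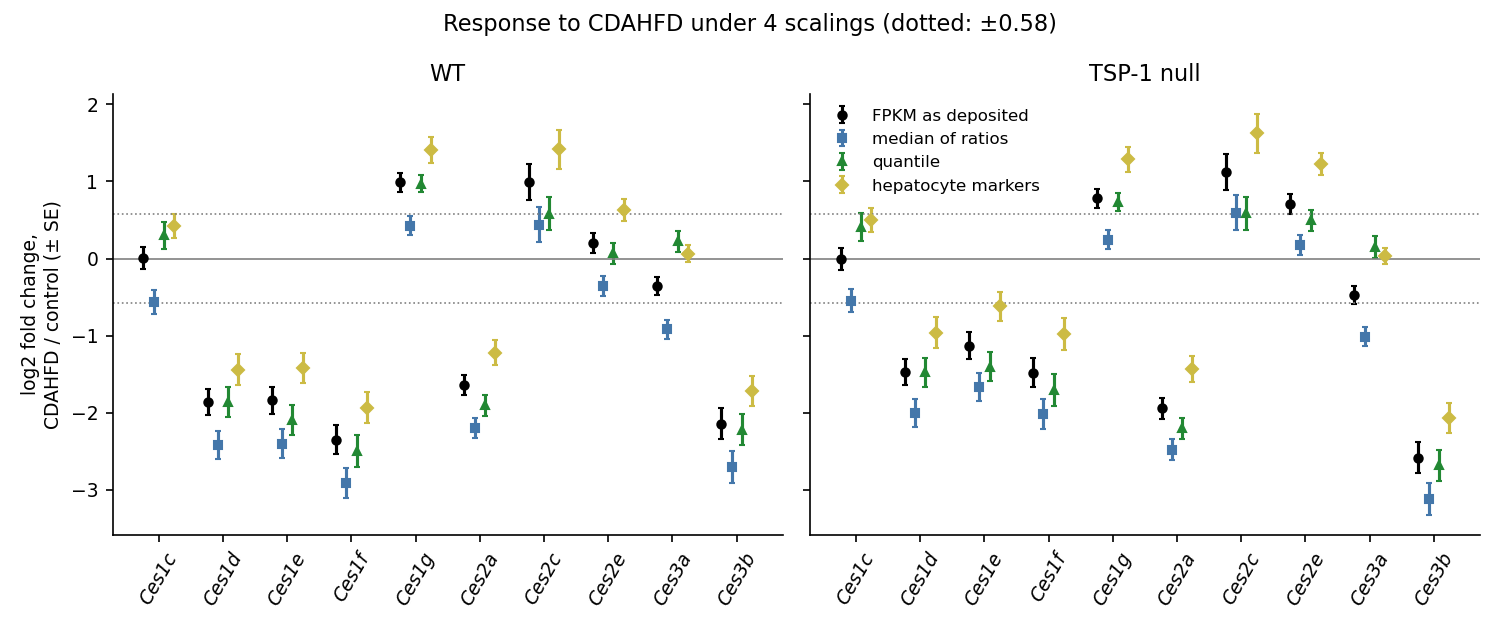
Log2 fold change ± SE of CDAHFD against control diet (vertical axis) for the 10 carboxylesterases under 4 scalings, in WT and in null mice, with dotted lines at the fold threshold. Under each scaling Ces1d, Ces1e, Ces1f, Ces2a and Ces3b stay below the lower line, while Ces1g runs from 0.43 to 1.41 in WT and Ces3a from −0.92 to 0.22.

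The second comparison asks how the genotype label changed these genes on control diet. 3 of 10 members passed, all lower in NDKO than in NDWT: Ces1f, Ces2e and Ces2c. In this comparison 4.77% of all genes passed, 3.03% lower and 1.74% higher, and the median log2FC of the members was −0.26 against −0.07 for all genes. The comparison shares its NDWT and NDKO libraries with the diet comparisons, so the values are not independent of them.

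Ces1f was 41.3 to 79.2 FPKM in NDKO, below all NDWT livers, which held 111 to 131 FPKM (log2FC −0.92, SE 0.19, FDR 0.00366). NDKO liver 1 was the lowest of its group in Ces1d, Ces1e and Ces1f alike. Ces1d and Ces1e had log2FC of −0.41 (SE 0.17, FDR 0.122) and −0.46 (SE 0.17, FDR 0.0865), with overlapping groups. Ces1e against Ces1f rose from 0.496 ± 0.0355 in NDWT to 0.680 ± 0.0479 in NDKO, without overlap, a ratio that was not tested.

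Ces2e held 22.5 to 40.4 FPKM in NDKO and 40.7 to 53.9 FPKM in NDWT, with a narrow gap between the groups (log2FC −0.68, SE 0.13, FDR 0.00238). With quantile normalization it was −0.57 and not called. Ces2c went from 9.99 ± 4.89 to 5.15 ± 1.48 FPKM, with overlap between NDKO liver 5 and 3 of the NDWT livers (log2FC −0.87, SE 0.23, FDR 0.0174). It no longer passed when only NDWT and NDKO were fitted (FDR 0.0801, in a range of 0.00173 to 0.0801 over the alternatives). The 2 groups did not overlap for 2 of 10 members, and for 9.03% of all genes. Under hepatocyte centring 5 members passed (17.7% of all genes), the 3 above with Ces1d and Ces1e (log2FC −0.72 and −0.76). Of the 15 hepatocyte markers, 2 passed as higher in NDKO and 0 as lower, and this centring moved the median of all genes to −0.37.

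On CDAHFD, none of the 10 members passed between HFKO and HFWT, where 0.496% of all genes passed. At an unadjusted p under 0.05, limma had 1 of the 10, Ces2c, against 17.2% of all genes. Ces2c was 9.31 to 13.4 FPKM in HFKO and 16.0 to 26.7 FPKM in HFWT, without overlap (log2FC −0.75, SE 0.23, FDR 0.112), the only member of the 10 without overlap (4.98% of all genes). It passed with voom on the fragments recovered from FPKM (log2FC −0.76, where 0.909% of all genes passed) and with hepatocyte centring (−0.97, where 5.1% did). Ces1d and Ces1f, with log2FC of −0.021 and −0.046 (95% intervals −0.38 to 0.34 and −0.44 to 0.35), were within the spread between mice.

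The last comparison asks whether the diet response differed between genotypes. No member passed, against 0.647% of all genes, and 3 of the 10 had an unadjusted p under 0.05 in limma, against 15.1% of all genes, with 0 called by voom. The interaction was largest for Ces1f (log2FC 0.87, SE 0.27, FDR 0.121) and Ces1e (0.71, SE 0.24, FDR 0.167). Both missed the threshold, and both interactions contain the control diet difference given above.

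Of the 10 carboxylesterase genes outside the set, 3 were high enough to test. Ces1b went from 11.1 ± 2.80 FPKM in NDWT to 34.0 ± 4.36 in HFWT and from 19.1 ± 1.56 in NDKO to 41.2 ± 11.1 in HFKO. It was the only gene of the family tested that passed as higher in NDKO than NDWT (log2FC 0.81, SE 0.17, FDR 0.00418), as 1.74% of all genes did. This genotype call of Ces1b was lost with hepatocyte centring (0.51). Its diet call in null mice was lost with median of ratios scaling (0.54). Ces2g went from 10.3 ± 0.997 to 22.9 ± 3.06 FPKM in WT (FDR 2.10e-08). Ces4a fell from 0.734 ± 0.183 FPKM, 18 to 52 fragments, to 0.0834 ± 0.0289 FPKM, 2 to 5 fragments (log2FC −2.17, FDR 2.04e-07), a fold that depends on the pseudocount of 0.1. The other 7, Ces1a, Ces1h, Ces2b, Ces2d-ps, Ces2f, Ces2h and Ces5a, held at most 0.738 FPKM in any library, and Ces5a had 0 fragments in every library.

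Gusb encodes beta-glucuronidase, which egasyn (Ces1e) holds in the endoplasmic reticulum. While Ces1e fell, Gusb rose in WT livers from 6.96 ± 0.705 to 20.4 ± 1.05 FPKM (log2FC 1.54, SE 0.10, FDR 1.26e-10). In null mice it rose from 7.31 ± 0.849 to 19 ± 3.07 FPKM (log2FC 1.36, FDR 8.88e-10). Markers of macrophages and other cells rose with the diet as given above, and their part in the rise of Gusb was not tested. In a list of 11 genes, esterases that act on drugs and small esters together with Gusb, 2 were higher and 2 lower in WT (median log2FC 0.17). In null mice 4 were higher and 2 lower (0.18). Gusb, which is not an esterase, is among those counted as higher in each genotype. The 2 lower in WT were Cmbl, which activates an ester prodrug (log2FC −0.76), and Afmid, of tryptophan breakdown (−1.58). Beside this list and those below, 44.1% of all genes were higher and 4.62% lower in WT, and 41.9% and 4% in null mice. The median log2FC of all genes was 0.53 and 0.50.

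Of 18 other neutral lipid and ester lipases and their regulators that could be tested, 2 were higher and 6 lower in WT (median log2FC −0.21), and 4 higher and 3 lower in null mice (0.06). Lpl, lipoprotein lipase, rose from 3.39 ± 0.789 to 68.2 ± 8.13 FPKM in WT (log2FC 4.31, FDR 9.01e-13). Mgll, which splits monoacylglycerol, fell from 134 ± 20.8 to 41.3 ± 6.45 FPKM (−1.69, FDR 6.18e-09), and G0s2, an inhibitor of adipose triglyceride lipase, from 415 ± 129 to 62.9 ± 14.8 FPKM (−2.70, FDR 1.90e-06). Aadac, a microsomal esterase close in function to the carboxylesterases, was lower in WT (log2FC −0.68, FDR 1.04e-05), while in null mice it missed the fold threshold (−0.51, FDR 0.000253). Abhd6, a monoacylglycerol lipase, was the single gene of this list lower in NDKO than NDWT (26.4 ± 3.69 to 15.2 ± 3.77 FPKM, log2FC −0.81, FDR 0.000770), where 3.03% of all genes were lower. It was also the single one to pass the interaction (0.87, FDR 0.0333), which 0.647% of all genes passed.

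Of 12 genes of VLDL assembly and secretion, the pathway that Ces1d feeds, 3 were lower and 0 higher in WT (median −0.06). In null mice 2 were lower and 1 higher (median −0.08). In WT livers Mttp, which loads lipid onto apolipoprotein B, went from 115 ± 5.56 to 50.6 ± 1.59 FPKM (log2FC −1.18, FDR 3.14e-12) and from 85.2 ± 7.82 to 56.0 ± 1.90 FPKM in null mice (−0.60, FDR 2.83e-08). Sar1b, of the vesicle coat, was lower in WT (−0.74), and Apoc3 was lower in both (−0.75 and −0.76). None of the 12 passed for genotype on either diet, where 4.77% of all genes passed on control diet and 0.496% on CDAHFD.

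Of 16 transcription factors known to act on hepatocyte drug and lipid genes, 4 were higher and 1 lower with CDAHFD in each genotype. Over all genes, 44.1% were higher and 4.62% lower in WT, and 41.9% and 4% in null mice. The median log2FC of the list was −0.05 and −0.06, against 0.53 and 0.50 for all genes. The lower factor was Ppara, the fatty acid receptor (log2FC −1.22, FDR 1.44e-07 in WT and −0.65, FDR 0.000275 in null mice). The drug receptors Nr1i2 (PXR) and Nr1i3 (CAR), and also Hnf4a, were not called. Nr1i2 had log2FC of −0.13 in WT and −0.40 (FDR 0.000987) in null mice. Nr1i3 had −0.28 (FDR 0.0164) and −0.50 (FDR 0.000186), and Hnf4a −0.14 and −0.42 (FDR 0.00235). In null mice each passed the FDR and missed the fold threshold, as did Nr1i3 in WT. Nfe2l2, the factor of the oxidative stress response, rose in both (0.79 and 1.04), as did Ahr (1.39 and 0.71) and Srebf1 (1.5 and 1.24). For genotype on control diet, Nfe2l2 was lower (−0.69, FDR 8.05e-05), and Ppargc1a (1.28) and Ahr (0.71) were higher in NDKO. In that comparison 3.03% of all genes were lower and 1.74% higher. Hnf4a (0.55, FDR 0.00337) and Nr1i2 (0.42, FDR 0.00714) passed the FDR there as higher and missed the fold threshold. Whether any of these factors bears on the carboxylesterases was not tested.

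Likeness of profiles was measured as the root mean square difference of log2(FPKM + 0.1), centred on each gene's own mean, over the 20 libraries, with the other 14523 genes ranked. Genes that respond to the diet share much of this measure, so it is a description. For Ces1d the nearest of all genes was Ces1e (0.22), for Ces1e it was Ces1d, and for Ces1f it was again Ces1d (0.29). Outside the members, the nearest genes to Ces1d were Ephx2, an epoxide hydrolase of fatty acid epoxides (0.24), and Me1, a cytosolic source of NADPH (0.27). Ces1e was nearest to Gm4952 (0.23) and Me1 (0.26), and Ces1f to Slc17a8 (0.30) and Gm12217 (0.32). Ces2a was nearest to Scnn1a (0.25) and Serpina1d (0.26), and Ces3b to Cyp2d9 (0.33) and Cadm4 (0.36). Ces1c was nearest to Stard7 (0.16) and Timm8a1 (0.17), and Ces3a to Acsm1 (0.15) and Serping1 (0.17). Ces1g was nearest to Cttn (0.16) and Prpf31 (0.17), Ces2c to Tppp (0.32) and Rpia (0.35), and Ces2e to Rassf8 (0.17) and Oma1 (0.17). For Ces2e the nearest gene of its own family was Ces1g, at place 6011.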

How the data were processed

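RNA of 20 livers was sequenced as strand-marked poly(A) libraries on an Illumina instrument. The deposited FPKM values were made by the authors with QuickRNASeq. The submitters' processing notes name STAR 2.5.2, Subread 1.5.1 and featureCounts, and a GRCh38 build, a human one. Gene coordinates in the table match mouse GRCm38. Whether counting used strand is not given in the sources used here. The medial or lateral right lobe was sampled, as sources differ. Raw counts were not used. Whole fragments per gene were recovered from the FPKM steps (tolerance 0.25), giving 15641545 to 23276322 fragments per library. 3 fragments on a 1 kb gene equal 0.129 to 0.192 FPKM, a limit that covers counting error only.

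Groups were taken from the sample labels. limma 3.58.1 in R 4.3.3 (linear model over all 4 groups, empirical Bayes with trend) was fitted to log2(FPKM + 0.1) of 14524 genes, those above 0.5 FPKM in 5 or more libraries, so fold changes of low genes are understated. A gene was called where the FDR (Benjamini-Hochberg) was under 0.05 with a log2FC beyond 0.58 in either direction. The 5 comparisons were diet in each genotype, genotype on each diet, and their interaction. P-values measure the spread between these mice. Tables were made with Python 3.11.15, pandas 2.3.3 and numpy 2.4.6, figures with matplotlib 3.10.9, and the fit was tested on simulated data. Genes of the lists were named by the smallest FDR, up to 3 per list and comparison, beside Hnf4a, Nr1i2, Nr1i3, Ppara, Gusb and Aadac. Members and lists (other carboxylesterases, lipases, esterases, VLDL genes, transcription factors and 11 marker lists) were chosen with earlier results of these data known. Within-group pairs of libraries differed by more than sampling noise. Alternatives in scaling, filter, pseudocount, model and libraries are given in the closing section.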

Additional observations from a re-analysis of the deposited data

Results flagged for a closer look

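Of 40 sets of 5 livers, 10 genes in 4 groups, 5 held a liver whose gap to the nearest other liver was more than Dixon's critical value of 0.71 of the group's range. Chance gives this in about 1 in 20 sets. For Ces1d, NDWT liver 3 was low at 205 FPKM (gap 0.794 of the range). Without it the log2FC of CDAHFD in WT was −1.94 and that of genotype on control diet −0.49 (limma FDR 0.0949). For Ces1f, NDWT liver 5 was high at 131 FPKM (gap 0.736), and without it these values were −2.31 and −0.88 (limma FDR 0.0109).

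For Ces2c, NDKO liver 5 was high at 7.71 FPKM (gap 0.759). Without it the log2FC was 1.27 for CDAHFD in null mice and −1.03 for genotype on control diet (limma FDR 0.00643). HFWT liver 1 was high at 26.7 FPKM (gap 0.837), and without it the log2FC of Ces2c was 0.86 for CDAHFD in WT (limma FDR 0.00301) and −0.62 for genotype on CDAHFD (limma FDR 0.225). For Ces3b, NDWT liver 2 was high at 278 FPKM (gap 0.898), and without it the log2FC of genotype on control diet was 0.33 (limma FDR 0.208). NDWT liver 2 was the highest of its group in 6 of the 10 genes, among them all 5 of the Ces2-Ces3 cluster. No call changed without any of these livers.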

How the results depend on the processing

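Of 740 values of the members under other settings, 703 kept their direction and side of the threshold, 7 lost the call, 9 gained it and 21 changed sign. Of 600 values with 1 library left out, 570 kept both and 30 changed sign, and counts called stayed at 7, 8, 3, 0 and 0 for diet in WT, diet in null mice, genotype on control diet, genotype on CDAHFD and the interaction. The replicate block also gave 7, 8, 3, 0 and 0. Replicate numbers did not pair the livers: same-numbered libraries of different groups had correlations of deviations of −0.133 to 0.0812 over 30 pairs, 0 of them above 0.1. Log2FC that changed sign with median of ratios scaling were, for diet, Ces1c −0.56 and Ces2e −0.36 in WT, for genotype, Ces1g 0.065 on control diet and Ces1d 0.081 and Ces1f 0.055 on CDAHFD, and Ces1c 0.015 in the interaction. With quantile normalization they were Ces3a 0.22 in WT and 0.15 in null mice, Ces1c 0.41 in null mice, Ces1g 0.043 on control diet, Ces1d 0.0039 and Ces1f 0.0021 on CDAHFD, and Ces1c 0.11 in the interaction. With hepatocyte centring they were Ces3a 0.062 in WT and 0.032 in null mice, Ces1c 0.50 in null mice, Ces1c −0.12, Ces2a −0.11 and Ces3b −0.18 on control diet, Ces1c −0.037 on CDAHFD, and Ces1c 0.078 in the interaction. With 1 library left out, Ces1c ran from −0.053 to 0.053 for diet in WT, −0.14 to 0.11 for diet in null mice and −0.14 to 0.11 in the interaction, Ces1g from −0.060 to 0.077 for genotype on control diet, Ces1d from −0.16 to 0.080 and Ces1f from −0.21 to 0.051 for genotype on CDAHFD, and Ces2c from −0.12 to 0.28 in the interaction. Hepatocyte centring gave 5 calls for genotype on control diet and 1 on CDAHFD (5.1% of all genes), where voom on recovered fragments, chosen after seeing the data, also gave 1 (0.909%). Summed FPKM under median of ratios scaling was 2828 in NDWT and 2800 in NDKO, against 1407 in HFWT and 1453 in HFKO. The sum was not computed with hepatocyte centring. As deposited and with 1 library left out, it was 2302 to 2479, 2207 to 2293, 1720 to 1789 and 1646 to 1759. The cause of these changes was not tested.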

Other observations

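The other marker lists moved as follows, where 44.1% of all genes were higher and 4.62% lower in WT, and 41.9% and 4% in null mice. Of 8 lymphocyte markers, 7 were higher with CDAHFD in each genotype, and of 4 neutrophil markers tested all 4 were. Of 8 endothelium markers, 2 were higher in WT and 3 in null mice, among them Lyve1, a marker of liver sinusoids (log2FC 1.1 and 1.45). Of 11 stellate cell and myofibroblast markers all 11 were higher in each genotype, of 10 macrophage markers 7 and 8 were higher and 1 was lower, and of 6 cholangiocyte markers tested all 6 were higher. Of 15 hepatocyte markers, 4 were lower in WT, and 6 were lower and 1 higher in null mice. Of 3 intestinal epithelium markers tested, 1 was higher and 1 lower in WT and 1 higher in null mice. Of 5 erythroid markers 1 and 2 were lower. The single adipocyte marker tested, Cfd, was lower in WT (log2FC −1.99), and the single pancreatic acinar marker tested did not pass. Their part in the levels of the carboxylesterases was not tested.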
